A study of Drosophila melanogaster with 16 samples.

Results

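Dachshund (dac, CG4952) and tramtrack (ttk, CG1856) are a pair of transcriptional regulators of Drosophila, and their chromatin was followed promoter by promoter in 3 neuronal driver lines. They were chosen by name, as every isoform entry whose gene symbol was dac or ttk, which gave 7 entries for dac and 8 for ttk, 15 of the 25406 entries with a gene and 2 of 15182 genes. The pair was proposed with earlier results of the same data known, among them lower H3K27me3 over dac in OK107 and Tdc2 than in R57C10. Their differences between lines are therefore given as a description, with no test.

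The dac protein is a nuclear cofactor that acts with Eyes absent and Sine oculis in the retinal determination network, and Kenyon cells of the mushroom body, a centre for olfactory learning, also make it and need it for normal axon development. The ttk gene encodes zinc finger repressors with a BTB domain, which hold back neuronal differentiation in eye precursors until they are degraded with the help of the ubiquitin ligase Sina and its adaptor Phyllopod, and which are made in embryonic glia. H3K27me3 is laid down by Polycomb group complexes over broad domains of silent developmental genes, while H3K27ac and H3K4me3 accumulate at active promoters, H3K27ac also at enhancers.

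Chromatin came from nuclei of adult heads in which a GAL4 driver expressed unc84-GFP, a nuclear envelope tag, so that nuclei could be captured on antibody-coated beads before digestion with micrococcal nuclease. The OK107-GAL4 line marks mainly Kenyon cells and is an insertion near eyeless, the Tdc2-GAL4 line marks mainly octopaminergic neurons and uses a regulatory fragment of Tdc2, and the R57C10-GAL4 line marks mature neurons in general, so R57C10 nuclei also include the other types. The OK107 line had 1 library for each mark, Tdc2 had 1 for H3K4me3, 1 for H3K27ac and 2 for H3K27me3, and R57C10 had 2 for each mark, with 1 input of unprecipitated chromatin a line. Replicates are called early and late by the date tag of their column, and nothing said whether they came from separate preparations, so every p below reflects the spread of these libraries alone, and that spread may be technical. Date tags of R57C10 differed from those of OK107 and Tdc2 in every mark and input, so driver line and date tag cannot be told apart in comparisons with R57C10. OK107 and Tdc2 carried a common date tag in H3K27ac, in H3K4me3 and in input, and the OK107 H3K27me3 library carried that of the early Tdc2 library. Nuclei of many cells were pooled, so a mark on fewer nuclei and less of it on each nucleus cannot be told apart.

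Read counts summed over distinct gene bodies in H3K27me3 were 95.37 M in OK107, 14.98 and 13.64 M in Tdc2, and 80.02 and 63.4 M in R57C10, with reads in overlapping isoforms counted more than once. In promoter windows H3K27ac held 10.08 to 22.03 M and H3K4me3 7.42 to 56.95 M. The H3K4me3 libraries of R57C10 stood apart from each other, with a median absolute log2 difference of 0.75 over promoters against 0.21 for H3K27ac and 0.13 for H3K27me3 over gene bodies. The lowest count behind a promoter value of dac or ttk was 120, and the widest exact 95% Poisson interval of a promoter or H3K27me3 gene body value was 18.3% to a side, which covers counting error only. CPM values are relative to the reads in features of the same kind, so that a log2 ratio of 0 to input is set by the average promoter or gene body of a library, and ratios at promoters and over gene bodies are on different scales. Levels are scaled by TMM unless stated otherwise, and each log2 fold is given ± its standard error from an edgeR fit of the whole table for that mark.

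On the dm3 assembly dac lay on the minus strand of 2L, from 16466512 to 16485984. Of its 7 isoforms 6 shared a start at 16485984, the promoter called P1 here, and dac-RE started 314 bp further into the gene at 16485670 (P2). The 1001 bp promoter windows of P1 and P2 overlapped by 687 bp, so their values shared most reads and are not independent. The ttk gene lay on the plus strand of 3R, from 27539591 to 27561114, with 4 starts used by 2 isoforms each. Its first promoter, P1 at 27539591, stood 11140 bp before P2 at 27550731, which was followed by P3 at 27551503 and P4 at 27552124. Windows of P2 and P3 overlapped by 229 bp and those of P3 and P4 by 380 bp, whereas P1 stood alone. Isoforms ended at either 27558490 or 27561114.

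The dac gene carried H3K27me3 well above input in all 3 lines, and the level over the gene body was lowest in OK107 and Tdc2. H3K27me3 over dac was 347 CPM in OK107, 350 and 378 CPM in Tdc2, and 489 and 652 CPM in R57C10. The OK107 and Tdc2 libraries all lay below both R57C10 libraries, and OK107 lay just below both Tdc2 libraries. The log2 fold was -0.72 ± 0.20 for OK107 over R57C10 (347 against 570 ± 115 CPM, SD, n = 1 and 2), and -0.65 ± 0.16 for Tdc2 over R57C10 (364 ± 19.7 against 570 ± 115 CPM, SD, n = 2 each). These comparisons share the R57C10 libraries. Between OK107 and Tdc2 it was -0.07 ± 0.20, smaller than its error, but -0.49 with total count scaling and -1.08 with the trend along enrichment removed. Of the 20609 gene bodies tested, 98.0% had a higher OK107 over R57C10 fold than dac, and 85.5% had a higher Tdc2 over R57C10 fold.

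In the background of these comparisons, 2.07% of gene bodies were called higher and 0.922% lower in OK107 than in R57C10 at a false discovery rate of 0.05, while 6.34% were called higher and 15.4% lower in Tdc2 than in R57C10. A fall of the size seen over dac was thus uncommon in OK107 and common in Tdc2. The Tdc2 fold turned to 0.29 when the trend of folds along enrichment over input was removed, and to -0.25 with total count scaling. The OK107 over R57C10 fold was -0.50 without the late R57C10 library and -0.95 without the early library.

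Set against input, the log2 ratio of H3K27me3 over the dac body was 1.70 in OK107, 1.53 and 1.64 in Tdc2, and 2.05 and 2.47 in R57C10. Input itself was 106, 120 and 117 CPM in OK107, Tdc2 and R57C10. The ratio of dac was above that of 95.8% of gene bodies in OK107, 98.8 and 99.1% in Tdc2, and 97.0 and 97.1% in R57C10. Thus dac stood near the top of each library, while the order of the lines by rank, with Tdc2 highest, was not the order by level.

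H3K27ac over the dac body was compared between OK107 and Tdc2, with 1 library each and CPM by total count. It was 161 CPM in OK107 and 72.4 CPM in Tdc2. The log2 fold of OK107 over Tdc2 was 1.14, above that of 99.96% of 20722 gene bodies, whose median was -0.08. Over input the log2 ratio was 0.60 in OK107 and -0.73 in Tdc2, so dac had more H3K27ac than input in OK107 and less in Tdc2. Over the same gene the H3K27me3 log2 fold of OK107 over Tdc2 was -0.07 ± 0.20 with TMM scaling. By total count, the scaling used here for H3K27ac, it was -0.49. H3K4me3 over the dac body was 159 CPM in OK107 and 111 CPM in Tdc2, a log2 fold of 0.52, above that of 73.3% of gene bodies with a median of -0.23.

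**Figure D1:**
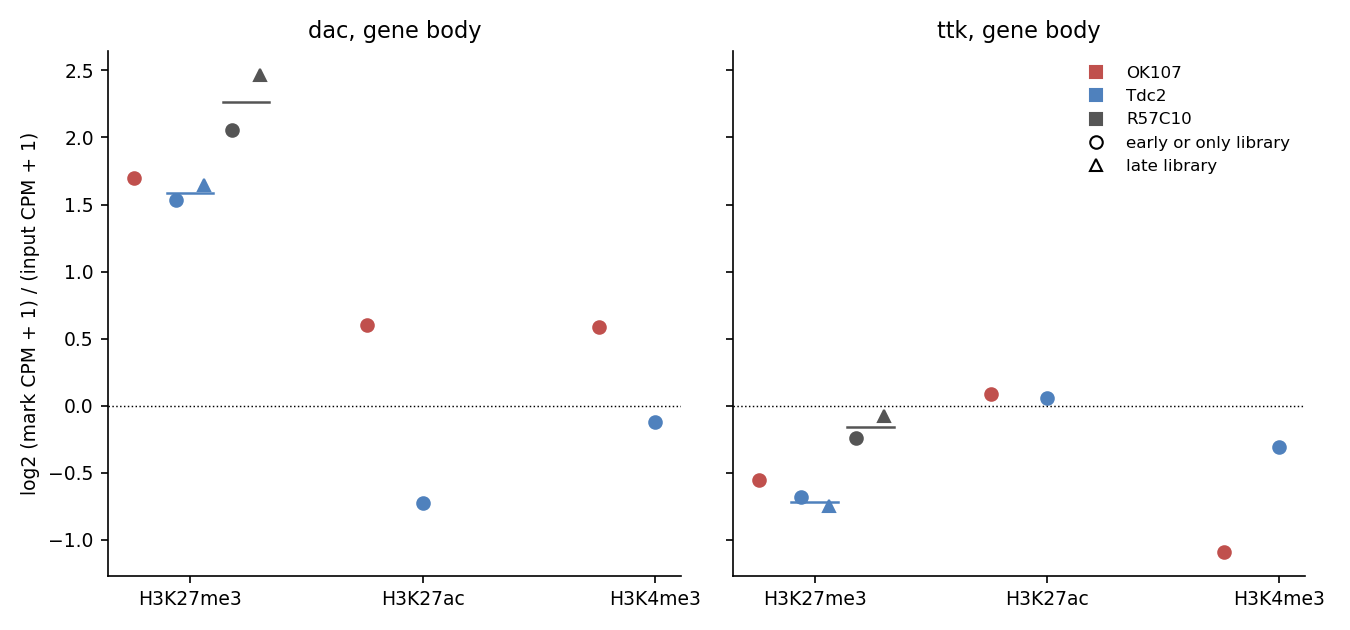
Log2 ratio of each mark to input over the gene bodies of dac and ttk, by library, with R57C10 shown for H3K27me3 alone. The y axis is log2 of mark CPM plus 1 over input CPM plus 1, points are libraries, short lines are means of 2 libraries, and the dotted line is input; dac H3K27me3 lies at 1.53 to 2.47 in all libraries, and dac H3K27ac lies at 0.60 in OK107 and -0.73 in Tdc2.

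Both dac promoters had most H3K27ac in OK107. At P1 the level was 46.4 CPM in OK107, 19.2 CPM in Tdc2, and 30.6 and 30.4 CPM in R57C10. At P2 it was 34.7 CPM in OK107, 14.2 CPM in Tdc2, and 18.6 and 20.2 CPM in R57C10. In each promoter OK107 lay above both R57C10 libraries and Tdc2 below both, in windows that share reads. The OK107 over R57C10 log2 folds were 0.61 ± 0.27 at P1 and 0.84 ± 0.26 at P2, larger than those of 85.9% and 93.1% of the 18991 promoter windows tested. The Tdc2 over R57C10 folds were -0.67 ± 0.29 and -0.45 ± 0.29, against the same R57C10 libraries. Under the alternatives tried, OK107 over R57C10 ran from 0.33 to 0.65 at P1 and from 0.49 to 1.14 at P2, and Tdc2 over R57C10 ran from -1.12 to -0.24 at P1 and from -1.23 to -0.0070 at P2.

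Between the lines with a single H3K27ac library each, the dac promoters were near the extreme. OK107 over Tdc2 was 1.27 at P1 and 1.29 at P2, and both exceeded 99.9% of promoter windows. Counting error was small beside this difference, since the exact 95% Poisson intervals at P1 were 42.9 to 50.2 CPM in OK107 and 16.7 to 22.0 CPM in Tdc2. Input in these windows differed little, by -0.12 at P1 and -0.11 at P2 on the log2 scale. Under the processing alternatives tried, the OK107 over Tdc2 fold ran from 1.18 to 1.49 at P1 and from 1.21 to 1.70 at P2.

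H3K4me3 gave the same order of lines at the dac promoters. At P1 it was 39.0 CPM in OK107, 14.7 CPM in Tdc2, and 20.8 and 22.8 CPM in R57C10, and at P2 it was 34.6 CPM in OK107, 12.2 CPM in Tdc2, and 20.8 and 22.4 CPM in R57C10. The OK107 value was highest and the Tdc2 value lowest at each start. OK107 over Tdc2 was 1.41 at P1 and 1.51 at P2, above 98.7% and 99.4% of promoter windows. The OK107 over R57C10 folds of 0.84 ± 0.79 and 0.68 ± 0.86, and the Tdc2 over R57C10 folds of -0.57 ± 0.84 and -0.83 ± 0.92, were of about the size of their errors, which come from the spread over all promoters. At these promoters the R57C10 libraries differed by an SD of 0.09 at P1 and 0.07 at P2 on the log2 scale. Under the alternatives tried, Tdc2 over R57C10 ran from -1.15 to 0.097 at P1 and from -1.41 to -0.061 at P2, so the place of Tdc2 below R57C10 did not hold in each of them. Over input the H3K4me3 log2 ratio at P1 was 0.48 in OK107, -0.98 in Tdc2, and -0.38 and -0.26 in R57C10, and at P2 it was 0.79, -0.75, and -0.21 and -0.11 in the same order of lines. The median OK107 over Tdc2 fold of all promoters in this mark was -0.30. These folds peaked both in the bin of 0.1 from -1.4 (934 windows) and in that from 0.8 (960 windows). The median lay between these peaks, so it was not the fold of a typical promoter.

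**Figure D2:**
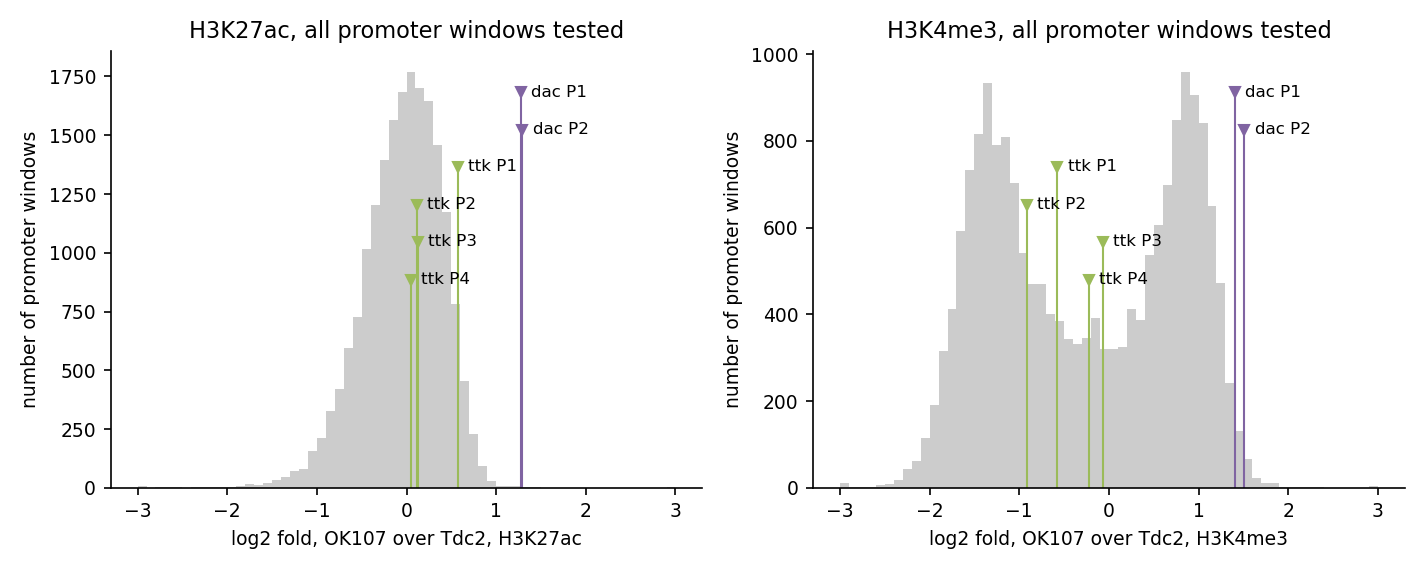
Number of promoter windows by log2 fold of OK107 over Tdc2, for H3K27ac and H3K4me3, 1 library a line. Grey bars count all tested windows in bins of 0.1, with values past 3 in either direction in the end bins, and arrows mark the 2 dac and 4 ttk promoters; the dac promoters lie at 1.27 and 1.29 in H3K27ac and at 1.41 and 1.51 in H3K4me3.

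Windows of 10 kb with a step of 5 kb, available for OK107 and Tdc2, showed where along dac the lines differed. Here levels are CPM by total count, the Tdc2 H3K27me3 value is the authors' pooled column, and neighbouring windows share reads. Of the 6 windows that overlap dac, H3K27ac was higher in OK107 than in Tdc2 in 6, by a median log2 ratio of 1.00 (0.0010 to 1.23), while the median over all 27353 windows compared was -0.07. The ratio was 1.16, 1.23, 1.04 and 0.96 in the windows centred 0.98, 5.98, 10.98 and 15.98 kb into the gene, and the window centred upstream of the start, at -4.02 kb, had 0.0010. The higher H3K27ac in OK107 thus spanned the gene, and windows of 10 kb cannot place its upstream limit more closely. The ratio was 0.58 in the window centred at 20.98 kb, which overlaps dac and reaches past its 3′ end. Windows wholly beyond that end, over Idgf1, Idgf2 and Idgf3, which encode imaginal disc growth factors, still had 0.37 to 0.39, above 94.7% to 95.7% of all windows. Upstream, windows over Tpr2 had -0.22 to 0.14.

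The H3K27me3 domain over dac also ended upstream near the gene start, as far as windows of 10 kb can show. Log2 ratios of H3K27me3 to input over the 6 dac windows had a median of 1.09 in OK107 and 1.54 in Tdc2, and the windows beyond the 3′ end, most of them over the Idgf genes, had 0.92 to 1.09 in OK107 and 1.30 to 1.51 in Tdc2. The window centred at -9.02 kb had -1.08 in OK107 and -0.71 in Tdc2. OK107 over Tdc2 had a median of -0.63 over dac, but the median of all windows was -0.42 in this mark, so about -0.22 remained relative to it. In contrast with H3K27ac, no dac window was extreme in this ratio, since 9.67% to 44.0% of all windows lay lower.

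**Figure D3:**
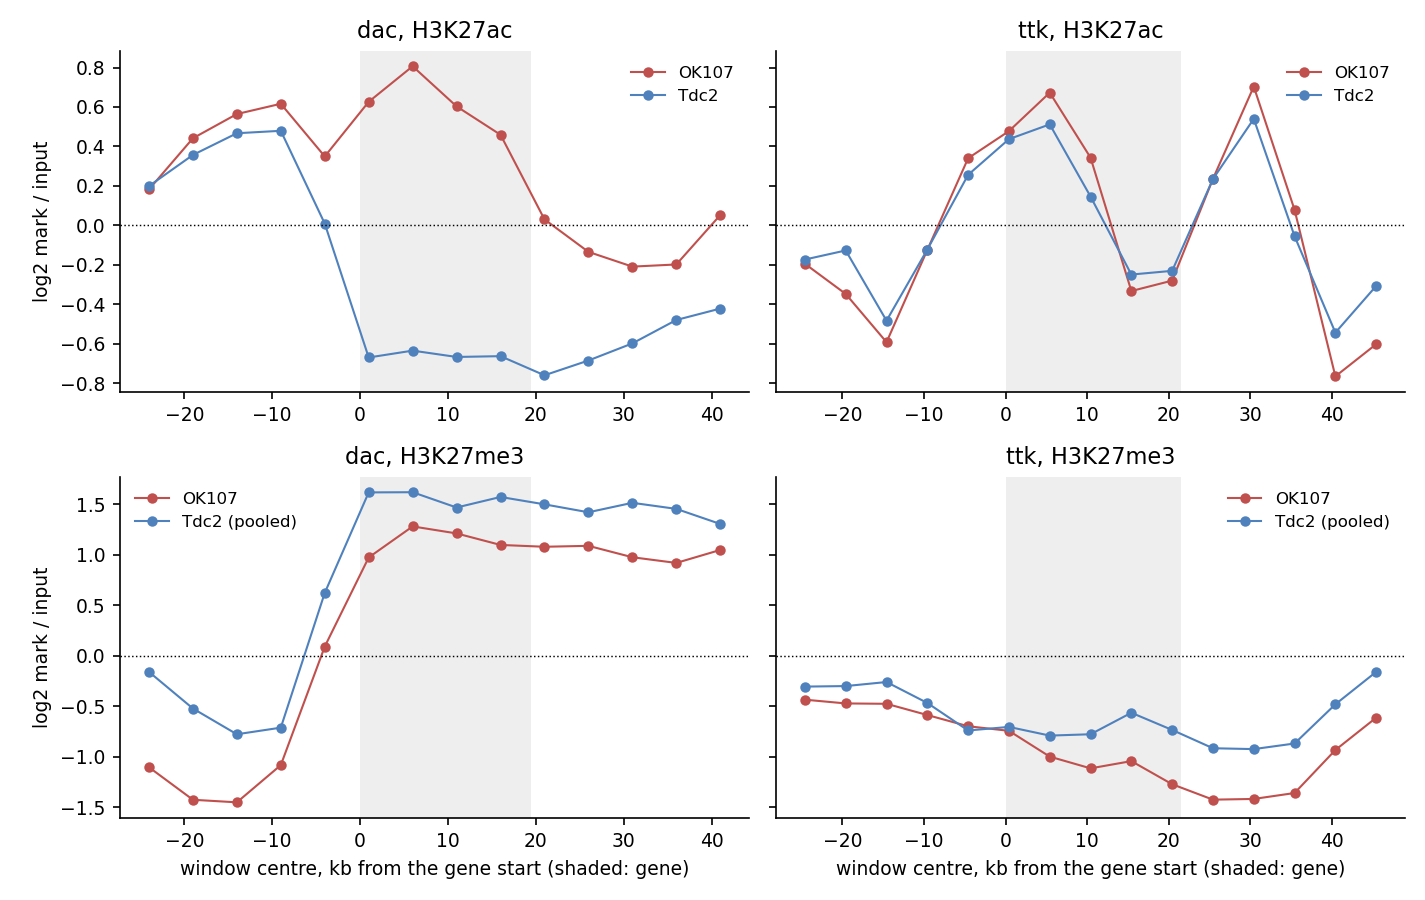
Log2 ratio of H3K27ac and H3K27me3 to input in 10 kb windows around dac and ttk, for OK107 and Tdc2. The x axis is the distance of the window centre from the first start in kb, positive into the gene, and the gene is shaded. Over dac OK107 reaches 0.81 in H3K27ac while Tdc2 lies between -0.67 and -0.63 in windows centred inside the gene. Over ttk the lines run together in H3K27ac. In H3K27me3 over ttk OK107 minus Tdc2 has a median of -0.34, against -0.40 over all windows.

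The ttk gene carried little H3K27me3, and its level was lower in OK107 and Tdc2 than in R57C10. It was 111 CPM in OK107, 101 and 96.3 CPM in Tdc2, and 150 and 168 CPM in R57C10. The 3 libraries of OK107 and Tdc2 lay below both R57C10 libraries, and OK107 lay above both Tdc2 libraries. Log2 folds were -0.52 ± 0.16 for OK107 over R57C10 (111 against 159 ± 13.05 CPM, SD, n = 1 and 2) and -0.69 ± 0.13 for Tdc2 over R57C10 (98.6 ± 3.22 against 159 ± 13.05 CPM, SD, n = 2 each), which share controls. With total count scaling the Tdc2 over R57C10 fold was -0.30. Lower folds were found for 4.18% and 13.7% of gene bodies in these comparisons. OK107 over Tdc2 was 0.17 ± 0.15, with 14.1% of all gene bodies called higher and 1.91% lower in that comparison. It became -0.25 with total count scaling and -0.04 with the trend along level removed.

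These ttk differences were at levels below input. The log2 ratio of H3K27me3 to input over ttk was -0.56 in OK107, -0.68 and -0.75 in Tdc2, and -0.24 and -0.07 in R57C10. Input was 164, 163 and 177 CPM in OK107, Tdc2 and R57C10. This ratio exceeded that of 53.9% of gene bodies in OK107, 41.4 and 35.3% in Tdc2, and 68.2 and 71.4% in R57C10, so ttk moved through the middle of the distribution while dac stayed near its top.

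H3K27ac over the ttk body was nearly level between OK107 and Tdc2. By total count it was 174 CPM in OK107 and 169 CPM in Tdc2, a log2 fold of 0.04, above that of 66.2% of gene bodies. H3K4me3 over ttk was 76.6 CPM in OK107 and 131 CPM in Tdc2, and both values were below input. The log2 fold was -0.77, above that of 28.8% of gene bodies with a median of -0.23.

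At the first ttk promoter H3K27ac was higher in OK107 and Tdc2 than in R57C10. At P1 the level was 98.5 CPM in OK107, 66.2 CPM in Tdc2, and 36.9 and 50.3 CPM in R57C10. Here OK107 and Tdc2 both lay above the R57C10 libraries. The OK107 over R57C10 log2 fold of 1.18 ± 0.27 exceeded 98.1% of promoter windows, and the Tdc2 over R57C10 fold of 0.61 ± 0.28 exceeded 76.6%. With the input as an offset the OK107 over R57C10 fold was 1.01 at P1 and 1.03 at P3, so that P1 did not stand above P3, and the Tdc2 over R57C10 fold at P1 was 1.02. OK107 over Tdc2 was 0.57, and the input in this window differed by 0.58 in the same direction, so with the input as an offset the fold was -0.0024.

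At the 3 inner ttk promoters, P2 had 58.5 CPM of H3K27ac in OK107, 54.1 CPM in Tdc2, and 31.0 and 34.4 CPM in R57C10. P3 had 44.7 CPM in OK107, 41.0 CPM in Tdc2, and 27.1 and 23.7 CPM in R57C10. P4 had 56.2 CPM in OK107, 54.3 CPM in Tdc2, and 41.8 and 37.0 CPM in R57C10. At each of these starts OK107 and Tdc2 were close together and above both R57C10 libraries, and the windows of neighbouring starts share reads. OK107 over R57C10 folds were 0.84 ± 0.29, 0.81 ± 0.27 and 0.51 ± 0.29 at P2, P3 and P4, and Tdc2 over R57C10 folds were 0.73 ± 0.29, 0.69 ± 0.28 and 0.46 ± 0.29. They exceeded 81.8% to 93.1% of promoters in OK107 and 71.6% to 80.8% in Tdc2. OK107 over Tdc2 was 0.05 to 0.13 at these starts, against a median of -0.0074 over all promoters. Over all promoters, 9.14% were called higher and 4.28% lower in OK107, and 20.5% higher and 8.64% lower in Tdc2, each against R57C10.

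Against input, the log2 ratio of H3K27ac at ttk P1 was 0.11 in OK107, 0.12 in Tdc2, and -1.11 and -0.68 in R57C10. The 3 inner promoters were below input in every library, between -0.62 and -0.16 in OK107 and Tdc2 and between -1.71 and -0.91 in R57C10.

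**Figure D4:**
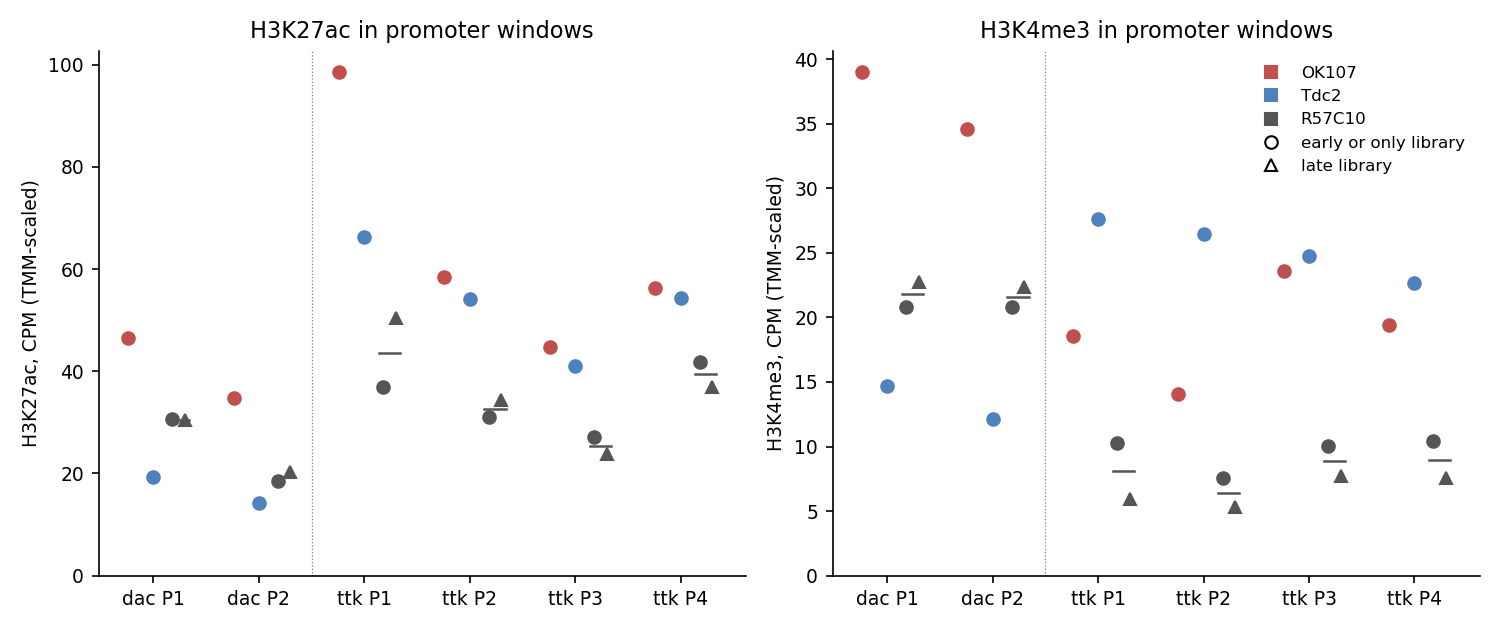
H3K27ac and H3K4me3 in the 1001 bp promoter windows of dac and ttk, in TMM-scaled CPM, by library. Points are libraries and short lines are means of 2 libraries; at the dac promoters OK107 is above and Tdc2 below both R57C10 libraries, and at the 4 ttk promoters OK107 and Tdc2 are both above them in both marks.

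H3K4me3 at the ttk promoters was near the middle of all promoters in OK107 and Tdc2 and lower in rank in R57C10. Of all promoters, 46.6% to 54.3% had a lower level in OK107, 45.5% to 55.4% in Tdc2 and 19.6% to 46.3% in R57C10. At P1 it was 18.6 CPM in OK107, 27.7 CPM in Tdc2, and 10.3 and 5.96 CPM in R57C10, where input was 60.8 to 91.0 CPM. At P2 it was 14.0 CPM in OK107, 26.4 CPM in Tdc2, and 7.53 and 5.32 CPM in R57C10. At P3 and P4 OK107 had 23.6 and 19.4 CPM, Tdc2 had 24.7 and 22.7 CPM, and R57C10 had 7.69 to 10.1 and 7.53 to 10.4 CPM. OK107 and Tdc2 were above R57C10 at all 4 starts. Log2 ratios to input were -2.23 to -1.51 in OK107, -1.74 to -1.11 in Tdc2 and -3.56 to -2.86 in R57C10, where the median promoter had -1.46 in OK107, -1.17 in Tdc2, and -1.36 and -2.05 in R57C10. Folds were 1.12 to 1.41 for OK107 over R57C10, with errors of 1.07 to 1.21, and 1.34 to 2.04 for Tdc2 over R57C10, with errors of 1.07 to 1.205. The OK107 folds exceeded those of 98.3% to 99.3% of promoters (median 0.098), and the Tdc2 folds those of 68.7% to 96.3% (median 0.42). Across all promoters edgeR called 0.00526% higher and 0% lower in OK107 (1 and 0 of 19012 windows) and 0% higher and 0% lower in Tdc2. At an unadjusted p under 0.05 the counts were 59 and 48 in OK107 and 52 and 851 in Tdc2, and DESeq2 called 4 and 3 in OK107 and 5 and 0 in Tdc2. Few promoters were thus called against R57C10 in this mark.

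The isoforms of ttk are nested, so that differences of their gene body counts gave the counts of 5 consecutive segments. The 4 pairs of isoforms with a common start and different ends gave the same count for the last segment in 12 of 12 libraries. This follows from their shared ends and does not check the division at P2, P3 and P4. The segment from P1 to P2, which ttk-RE and ttk-RF alone span, made up 51.8% of the gene and held 66.7% of its H3K27ac counts in OK107 and 63.4% in Tdc2, against 48.6% of the input counts in OK107 and 49.55% in Tdc2. Its log2 ratio of H3K27ac to input, by total count, was 0.54 in OK107 and 0.41 in Tdc2. In the other 4 segments the ratio was below 0 in both lines, so that H3K27ac over ttk lay mainly between P1 and P2.

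From P2 to P3, H3K27ac was -0.21 in OK107 and -0.10 in Tdc2 relative to input, and between the ends it was -1.03 in OK107 and -0.58 in Tdc2. In H3K4me3 the segment from P2 to P3 had 0.13 in OK107 and 0.35 in Tdc2, and every other segment was below input in both lines. These ratios are relative to gene body totals and cannot be set beside those of the promoter windows. H3K27me3 ratios lay between -0.73 and -0.20 in OK107, between -1.95 and -0.42 in Tdc2, and between -0.36 and 0.15 in R57C10. The lowest of them, from P2 to P3 in the early Tdc2 library, rested on 22 reads.

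**Figure D5:**
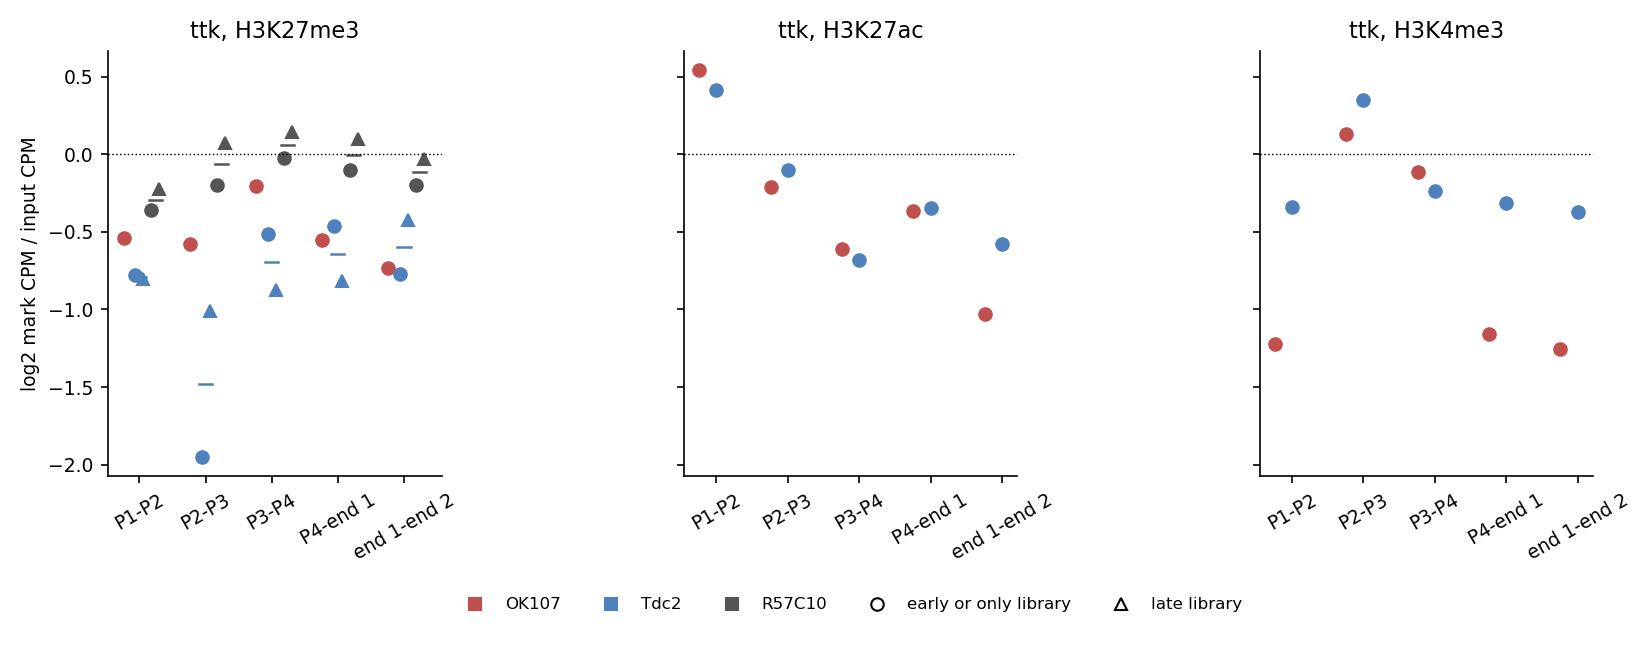
Log2 ratio of mark CPM to input CPM along ttk, in 5 segments between its 4 promoters and its 2 ends (end 1 is the nearer, end 2 the last), with R57C10 shown for H3K27me3 alone. Points are libraries, short lines are means of 2 libraries and the dotted line is input; in H3K27ac the segment from P1 to P2 is above 0, at 0.54 in OK107 and 0.41 in Tdc2, and the others are below 0.

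In 10 kb windows H3K27ac over ttk was much alike in OK107 and Tdc2. The 7 windows over ttk had a median H3K27ac log2 ratio of OK107 to Tdc2 of 0.05 (-0.03 to 0.21), and in both lines H3K27ac peaked in the window centred 5.41 kb into the gene, at 0.67 over input in OK107 and 0.51 in Tdc2. H3K27me3 was below input in all 7 windows, with medians of -1.04 in OK107 and -0.74 in Tdc2. OK107 over Tdc2 had a median of -0.33 in H3K27me3, and 0.09 relative to the median of all windows.

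Per length, dac and ttk differed most in H3K27me3. The level was 17.8 CPM per kb over dac and 5.17 over ttk in OK107, 18.0 and 19.4 over dac and 4.68 and 4.47 over ttk in Tdc2, and 25.1 and 33.5 over dac and 6.95 and 7.81 over ttk in R57C10, while input was 5.44 to 6.18 CPM per kb over dac and 7.55 to 8.22 over ttk. By total count, H3K27ac was 8.27 CPM per kb over dac and 8.09 over ttk in OK107, and 3.72 over dac and 7.85 over ttk in Tdc2. Thus the H3K27ac level of dac per kb was near that of ttk in OK107 and below it in Tdc2. H3K4me3 by total count was 8.19 CPM per kb over dac and 3.56 over ttk in OK107. In Tdc2 it was 5.68 over dac and 6.10 over ttk, so the order of the genes in this mark changed with the line. Over input the H3K27ac log2 ratio was 0.60 for dac and 0.09 for ttk in OK107. In Tdc2 it was -0.73 for dac and 0.05 for ttk. H3K27me3 over dac was above input in all 3 lines.

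The genes with the pattern most like each member were ranked by Euclidean distance among 6353 genes with a symbol, over log2 ratios of 13 mark libraries to their input, with H3K27me3 from gene bodies and the other marks from promoters. Nearest to dac were toy, the second Pax6 gene, at 1.06, Bx, a LIM-only protein gene, at 1.23, and pros, a homeodomain factor gene, at 1.23, followed by Vsx1, a homeobox gene, at 1.69, and Rfx, a winged-helix factor gene, at 1.79. The gene toy had H3K27me3 ratios of 1.68 in OK107, 1.72 in Tdc2 and 2.17 in R57C10 and H3K27ac ratios of 0.90 in OK107, -0.31 in Tdc2 and -0.16 in R57C10. Nearest to ttk were Tsp42En, a tetraspanin gene, at 0.81, Itp-r83A, the inositol trisphosphate receptor gene, at 0.94, Gs2, a glutamine synthetase gene, at 0.99, esc, which encodes a Polycomb group protein, at 1.01, and TTLL3A at 1.09. The distance between dac and ttk was 7.06, against a median distance to all genes of 7.40 from dac and 6.29 from ttk. Libraries of a line share its input, so the 13 values are not independent.

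Of 13 genes that work with dac in the retinal determination network, 2 fell in H3K27me3 in OK107 relative to R57C10, with a median log2 fold of -0.14 against 0.0045 over all gene bodies. They were the Pax6 genes ey (-3.39 ± 0.26, edgeR adjusted p = 3.0e-05) and toy (-1.15 ± 0.22, edgeR adjusted p = 0.011), and without the early R57C10 library 9 genes of the list were called. Beside them dac had -0.72, and 0.922% of all gene bodies were called lower in this comparison. In Tdc2 relative to R57C10, 13 of 13 fell, with a median of -1.28 against 0.041, where 15.4% of all gene bodies fell. Among them were tio, a zinc finger gene, by 1.54 ± 0.16, and so, a homeobox gene whose product binds Eyes absent, by 1.28 ± 0.17. With the trend along enrichment removed 1 of 13 was called. The fall of 0.65 over dac was smaller than that of every gene of the list, including toy (0.67). In OK107 relative to Tdc2, 11 were higher and 1, ey, lower (-2.48 ± 0.24), with a median of 1.08 against -0.04, where dac had -0.07. Of all gene bodies 14.1% were called higher and 1.91% lower in OK107 than in Tdc2. In promoter H3K27ac 5 of 13 rose in OK107 and 4 of 13 in Tdc2, with medians of 0.52 and 0.16 against 0.014 and -0.06, where 9.14% of all promoters rose in OK107 and 20.5% in Tdc2. They included ey in OK107 (2.18 ± 0.26) and toe, a Pax gene, in OK107 (1.94 ± 0.28) and Tdc2 (1.99 ± 0.28).

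Among 13 BTB domain factors related to ttk, chinmo, which sets the temporal identity of Kenyon cells, was the single gene called in H3K27me3 in OK107 over R57C10 (1.02 ± 0.16, edgeR adjusted p = 0.0029), and 8 were called without the early R57C10 library and 6 without the late one. In Tdc2 over R57C10, 3 rose and 5 fell, with a median of 0.23, and the fallen genes included br, an ecdysone-response factor (-1.36 ± 0.15), and rib (-1.24 ± 0.16). In OK107 over Tdc2, 5 were higher and 1 lower, with a median of 0.17. Of all gene bodies, 2.07% rose in OK107 over R57C10, and 6.34% rose and 15.4% fell in Tdc2 over R57C10. In OK107 over Tdc2 14.1% were higher and 1.91% lower. The H3K27ac counts were 1 lower in OK107, and 1 higher and 2 lower in Tdc2, with medians of -0.28 and -0.18, against 4.28% of all promoters lower in OK107, and 20.5% higher and 8.64% lower in Tdc2.

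Of 8 genes known to control Ttk levels, numb rose in H3K27me3 in OK107 over R57C10 (0.61 ± 0.15), phyl rose (0.74 ± 0.17) and Egfr fell (-0.81 ± 0.16) in Tdc2, and msi and numb were higher in OK107 than in Tdc2 (0.68 ± 0.18 and 0.86 ± 0.15). The list medians were -0.00015, -0.17 and -0.0068. Of all gene bodies, 2.07% were called higher in OK107 over R57C10, and 14.1% in OK107 over Tdc2. In Tdc2 over R57C10 6.34% were called higher and 15.4% lower. With RLE scaling numb was no longer called in OK107 over R57C10, and 6 genes of the list were called in Tdc2 over R57C10 without the early R57C10 library and 1 without the late one. In H3K27ac Egfr, the receptor whose signal leads to Ttk degradation, rose in OK107 (1.13 ± 0.27) and Tdc2 (1.26 ± 0.27), and sev rose in Tdc2 (0.89 ± 0.27), with medians of 0.17 and 0.23. These were 1 of 8 genes in OK107 and 2 of 8 in Tdc2, shares near the 9.14% and 20.5% of all promoters called higher. The genes sina, ebi and N passed in no comparison of H3K27me3 or H3K27ac.

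Of 6 genes repressed by Ttk in embryos, none passed in H3K27me3 in OK107 over R57C10 with edgeR (0 at an unadjusted p under 0.05, and 0 with DESeq2; median -0.26), and 3 were called without the early R57C10 library. In Tdc2 over R57C10, 1 rose and 4 fell, led by ftz (-1.68 ± 0.15) and eve (-1.52 ± 0.18), with a median of -1.30, and 4 were higher in OK107 than in Tdc2, with a median of 0.97. With the trend along enrichment removed 1 gene of this list was called in Tdc2 over R57C10. Of all gene bodies edgeR called 6.34% higher and 15.4% lower in Tdc2 than in R57C10, and 14.1% higher in OK107 than in Tdc2. Of all promoters it called 9.14% higher in H3K27ac in OK107 over R57C10 and 20.5% in Tdc2 over R57C10. In H3K27ac 3 rose in each line over R57C10, namely h, eve and ftz, by 1.38 ± 0.26, 1.25 ± 0.27 and 1.22 ± 0.27 in OK107 and by 0.94 ± 0.27, 1.505 ± 0.27 and 1.45 ± 0.27 in Tdc2, with medians of 0.98 and 0.74. These pair-rule genes had 30.4 CPM (eve) and 29.8 CPM (ftz) in OK107, 36.4 and 35.0 CPM in Tdc2, and 12.96 and 12.9 CPM in R57C10. With DESeq2 the H3K27ac calls over R57C10 in OK107 and Tdc2 were 2 and 2 genes of the retinal determination list and 0 and 0 of the BTB list. They were 0 and 1 of the genes that control Ttk, and 1 and 2 of the repressed genes. With the trend along enrichment removed, the H3K27me3 calls in OK107 over Tdc2 were 2 genes of the retinal determination list, 0 of the BTB list and 0 of the repressed genes. In H3K4me3 no gene of any list was among the edgeR calls.

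The lines were checked against marker genes. Of 8 Kenyon cell genes, ey, toy and Eip93F fell in H3K27me3 in OK107 over R57C10 (median -0.59) and in Tdc2 over R57C10 (median -0.38). In H3K27me3 in OK107 over Tdc2, ab and mamo were higher and ey lower (median -0.17). In H3K27ac ey alone rose in OK107, where the driver insertion lies near ey, a share near the 9.14% of all promoters. The list median in H3K27ac was -0.05 in OK107, against 0.014 over all promoters. It was -0.35 in Tdc2, against -0.06, with no gene called. Of all gene bodies, 0.922% fell in OK107 over R57C10 and 15.4% in Tdc2 over R57C10. In OK107 over Tdc2 14.1% were higher and 1.91% lower. Of 3 octopaminergic genes, Vmat (-2.15 ± 0.16) and Tbh (-0.50 ± 0.13) fell in H3K27me3 in Tdc2 over R57C10 (median -0.50), and Tdc2 (1.19 ± 0.27) and Vmat (1.16 ± 0.27) rose in H3K27ac (median 1.16), where Tdc2 reads may include the driver's fragment. In OK107 over Tdc2, Vmat was higher in H3K27me3 (2.07 ± 0.18, list median 0.47). Of all promoters 9.14% rose in H3K27ac in OK107 over R57C10 and 20.5% in Tdc2 over R57C10.

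Markers of other cells were followed in the same comparisons as ttk. Of 9 glial genes found of 10, 2 rose in H3K27ac in OK107 and 4 in Tdc2, with medians of 0.37 and 0.23, and their summed level was 427 CPM in OK107, 421 CPM in Tdc2, and 323 and 332 CPM in R57C10. In H3K27me3 the glial median in OK107 over R57C10 was -0.06, where ttk had -0.52. In Tdc2 over R57C10 4 of the 9 glial genes fell (median -0.29), and 4 were higher in OK107 than in Tdc2 (median 0.25). Their H3K27me3 sums were 625 CPM in OK107, 409 and 405 CPM in Tdc2, and 616 and 740 CPM in R57C10. The 7 photoreceptor genes had summed H3K27ac of 331 CPM in OK107, 333 CPM in Tdc2, and 290 and 295 CPM in R57C10, with 1 higher and 1 lower in OK107 (median 0.51) and 3 higher in Tdc2 (median 0.30). In H3K27me3 1 photoreceptor gene rose in OK107 over R57C10 (median -0.16), 4 fell in Tdc2 over R57C10 (median -0.80) and 6 were higher in OK107 than in Tdc2 (median 0.88). The 8 pan-neuronal genes had summed H3K27ac of 469 CPM in OK107, 470 CPM in Tdc2, and 755 and 688 CPM in R57C10, with 2 lower in OK107 (median -0.48) and 3 lower in Tdc2 (median -0.56). In H3K27me3 5 of them rose in Tdc2 over R57C10 (median 0.56) and 1 was lower in OK107 than in Tdc2 (median -0.28). Under the alternatives tried, H3K27me3 calls of either direction in Tdc2 over R57C10 ran from 0 to 5 in glial genes. They ran from 2 to 5 in photoreceptor genes and from 3 to 8 in pan-neuronal genes. In OK107 over Tdc2 they ran from 0 to 5, 2 to 6 and 0 to 5 in the same order of lists. With DESeq2 the H3K27ac calls in OK107 and Tdc2 were 0 and 2 glial genes higher, 0 and 3 photoreceptor genes higher, and 1 and 1 pan-neuronal genes lower. Over all promoters edgeR called 9.14% higher and 4.28% lower in OK107, and 20.5% higher and 8.64% lower in Tdc2. Over all gene bodies in H3K27me3 it called 2.07% higher in OK107 over R57C10, and 6.34% higher and 15.4% lower in Tdc2 over R57C10. In OK107 over Tdc2 it called 14.1% higher and 1.91% lower. No listed marker was at 0 in any library, and the part of these shifts in the values of dac and ttk was not tested.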

How the data were processed

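Read counts of 13 chromatin immunoprecipitation and 3 input libraries were analysed. The counts deposited by the authors are raw reads per isoform, in 1001 bp promoter windows and over gene bodies, and per 10 kb window with a step of 5 kb; per the submitters' processing notes CASAVA 1.8, Bowtie 0.12.7 and bedtools 2.15 were used with dm3. The sources used here do not say how reads with several matches were treated. Entries with no gene held 0.463 to 1.16% of a column's counts. A further 57 columns of per-sample values were not used. Library columns carry date tags and no replicate numbers, so replicates are named early and late, and replicated groups were used for 1 kind of feature each: gene bodies for H3K27me3, promoters for H3K27ac and H3K4me3.

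Entries with the same coordinates were merged into 21221 gene bodies and 19497 promoter windows. All lines entered 1 model per mark in edgeR 4.0.16 under R 4.3.3 (quasi-likelihood test, TMM scaling, default low-count filter, false discovery rate 0.05 by Benjamini-Hochberg), which tested 20609 gene bodies for H3K27me3, 19012 promoters for H3K4me3 and 18991 for H3K27ac. Single libraries were assumed to vary like the replicated lines. Ratios to input used a pseudocount of 1 and input CPM by total count. Gene body values of dac are those of its 6 longest isoforms and those of ttk are of ttk-RE. H3K27ac and H3K4me3 over gene bodies, for OK107 and Tdc2, were added after the data were seen. The fits were tested on simulated data.

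Members and gene lists were chosen with earlier results of these data known. Context lists have 1 feature per gene, the one with the largest sum. Only some genes of a list were named, and not strictly by size of fold. An unnamed gene can therefore have a larger fold than a named one, such as ato of the retinal determination list (-1.52 in H3K27me3 in Tdc2 over R57C10). Alternatives tried were DESeq2 1.42.0, scaling by RLE or total count, 1 feature per gene, no filter, only the compared lines, the input as offset, trends along level and enrichment removed, other isoforms' bodies and each replicate left out. Promoter sequences were not used here, so a planned motif search was not run.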

Additional observations from a re-analysis of the deposited data

Results flagged for a closer look

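At both dac promoters OK107 lay above both R57C10 libraries and Tdc2 below both, so that the effects of the lines against R57C10 had opposite directions in 4 measures. The log2 fold of OK107 over Tdc2 was 1.41 at P1 and 1.51 at P2 in H3K4me3, and 1.27 at P1 and 1.29 at P2 in H3K27ac. OK107 and Tdc2 had 1 library each in these marks, and the difference was not tested. With the trend along enrichment removed, Tdc2 over R57C10 was 0.097 at P1 and -0.061 at P2 in H3K4me3, and -0.24 at P1 and -0.0070 at P2 in H3K27ac, so the opposite directions did not hold at P1 in H3K4me3 and nearly vanished at P2. The windows of P1 and P2 overlap, so their values share reads. At the ttk promoters OK107 and Tdc2 lay on the same side of R57C10 in H3K27ac and H3K4me3.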

How the results depend on the processing

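No paired analysis was possible because the columns carry date tags and no replicate numbers, and the lines compared share at most 1 date tag in a mark. Of 218 alternative values for H3K27me3 gene bodies and main promoters, 187 stayed within the spread between replicates, 26 moved further and 5 reversed. That spread was the larger of the feature's own replicate SD and the median replicate SD over all features. A change of sign counted as reversed only where the main fold exceeded that spread. Sign changes of smaller folds are therefore among the values that stayed or moved. The cause was not tested.

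With total count scaling the H3K27me3 log2 folds were -0.25 for dac and -0.30 for ttk in Tdc2 over R57C10, and -0.49 for dac and, reversed, -0.25 for ttk in OK107 over Tdc2. With the trend along level removed they were -0.11 for dac and -0.53 for ttk in Tdc2 over R57C10, and -0.62 for dac and, reversed, -0.036 for ttk in OK107 over Tdc2. With the trend along enrichment removed dac reversed to 0.29 in Tdc2 over R57C10 and had -1.08 in OK107 over Tdc2, where ttk had 0.00898. With the input as offset dac had 0.11 in OK107 over Tdc2. For ttk in OK107 over R57C10 the body of ttk-RH gave -0.64, and leaving out a replicate gave -0.64 to -0.43.

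In H3K4me3, dac P1 in Tdc2 over R57C10 was -1.15 with RLE scaling and with DESeq2, and reversed to 0.097 with the trend along enrichment removed; in OK107 over Tdc2 it was 0.83 with total count scaling. At ttk P3, Tdc2 over R57C10 was 0.94 with RLE scaling and with DESeq2 and 0.62 with the trend along level removed. OK107 over Tdc2 there was -0.64 with total count scaling, 0.50 with the trend along level removed and 1.07 with that along enrichment removed. In H3K27ac, dac P1 had 0.38 in OK107 over R57C10, -1.12 in Tdc2 over R57C10 and 1.49 in OK107 over Tdc2 with the trend along level removed, and 0.33 and -0.24 over R57C10 in OK107 and Tdc2 with that along enrichment removed. With the input as offset ttk P1 had 1.02 in Tdc2 over R57C10 and reversed to -0.0024 in OK107 over Tdc2.

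Among other values, H3K4me3 in OK107 over Tdc2 reversed to 0.30 at ttk P2 and 0.66 at ttk P1 with the trend along enrichment removed, and to 0.072 at ttk P1 with that along level removed. The ttk windows in H3K27me3 reversed to 0.089 with the median of all windows set to 0, a setting chosen after seeing the data. DESeq2 called 263 promoters higher and 104 lower in H3K27ac in OK107 over R57C10, against 1735 and 812 with edgeR, and 2338 and 450 in Tdc2, against 3892 and 1640. Of 639 list counts 137 moved past 1.5 times. At the lowest count, 120 reads, counting error alone was 18.3% to a side.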
